A study of Rattus norvegicus with 72 samples.

Results

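The serpins are a family of proteins that share one fold and mostly block serine proteases. A serpin offers the protease a loop as bait, is cut once, and locks the enzyme in a dead complex. Hepatocytes make most of the serpins of blood plasma, which restrain clotting, fibrinolysis, complement and tissue proteases, and some of these proteins carry hormones in place of inhibiting an enzyme. Serpins of clade B stay inside the cell, where they guard against granule proteases of leukocytes, and Serpinh1 is a chaperone of collagen in the endoplasmic reticulum.

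Here the family was taken as every probe set whose annotated gene symbol begins with Serpin and that carries no other symbol. This gave 38 of the 31099 probe sets of the array, for 33 of the 14217 genes with 1 symbol. Clade A, the secreted inhibitors related to antitrypsin, had 12 genes, and clade B had 11 genes in 14 probe sets. The other clades, C to I, had 10 genes between them. Each of 5 genes, Serpinb1a, Serpinb7, Serpinb9, Serpinh1 and Serpini1, had 2 probe sets, which are given separately.

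The values came from primary rat hepatocytes, liver cells isolated by collagenase perfusion and kept as a monolayer. The medium was changed after attachment to one without serum, which held hydrocortisone and insulin in every group, controls included. The cells were then exposed for 24 h or 72 h, with 3 arrays in each of 24 groups. The compounds were aflatoxin B1 (19 nM), the nitrosamine NNK (625 µM) and 2-nitrofluorene (78 µM), which the design names genotoxic carcinogens. Those it names non-genotoxic carcinogens were Wy-14643 (250 µM), an agonist of the lipid receptor PPARα, piperonyl butoxide (13.4 µM) and methapyrilene (8.5 µM). The non-carcinogens were nifedipine (156 µM) and clonidine (277 µM). One control group at each time served Wy-14643, clonidine and aflatoxin B1, and another served 2-nitrofluorene, piperonyl butoxide and nifedipine. NNK and methapyrilene each had a separate control. Neither the rat strain nor the vehicle of the controls is named in the labels.

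A probe set was tested where at least 1 group reached the median of the table, 19.74 signal units. Of the Serpin probe sets, 24 of 22 genes passed, among 18048 in all. The 14 that did not pass were Serpina5, Serpina12, Serpinb2, Serpinb3, both of Serpinb7, Serpinb10, Serpinb11, Serpinb12, Serpine3, 1 of Serpinh1 (1369009_at), both of Serpini1 and Serpini2. The highest signal of these 14 on any array was 55.4, for Serpina5 on a control array, and Serpinb2 stayed at or below 3.23. Just inside the limit lay Serpinb6b, with a highest group mean of 20.1, and just outside it Serpini1 (1387131_at) with 18.4.

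Arrays of the set of Wy-14643, clonidine and aflatoxin B1 stood apart. Their titles carry a D number, which nothing in the labels explains, and 8 arrays have the number 3. All 8, with 1 aflatoxin array at each time, had a log2 ratio of 3' over 5' β-actin signal of 1.84 to 2.71, against 0.355 to 1.11 on the other 62 arrays. This ratio rises with degraded or short labelled RNA. A culture-time score over 3922 probe sets other than Serpins, in which 1 stands for the whole mean change of the other controls, changed from 24 h to 72 h by −0.49 ± 0.13 (SD) in the 4 pairs of number 3, and by 0.69 ± 0.24 in 23 other pairs that the score did not use. The sign was opposite to the label in 4 of 4 such pairs and as labelled in 23 of 23. Called results that rest on these arrays are given with and without them, under the labels as deposited. Of hepatocyte markers 12 of 14 genes were measured, with albumin between 3055 and 11268 on every array. Markers of other liver cells were measured too, 14 of 16 for macrophages, 10 of 14 for stellate cells and fibroblasts, 6 of 11 for endothelial cells and 3 of 8 for bile duct cells. In RNA of a whole culture, fewer cells of a type and less RNA per cell cannot be told apart.

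The upstream sequences of 4 Serpins are shown because these genes carry the contrasts described further on. Serpina3c, which fell furthest with time in culture, had no matched RefSeq promoter and is not shown. Serpina3l and Serpina3m fell with time in culture and lie in one cluster on chromosome 6 with Serpina3n, which did not pass there but fell after Wy-14643. Serpinb9b, on chromosome 17, was the member that fell after aflatoxin B1. The 250 bases before each RefSeq start (GRCr8) are chr6:129062956-129063205, plus strand, chr6:128836840-128837089, minus strand, chr6:129088142-129088391, plus strand, and chr17:31594984-31595233, minus strand. Capitals mark matches to TTCNNNGAA, the letters of a STAT5 element, which reads alike on both strands.
Serpina3l: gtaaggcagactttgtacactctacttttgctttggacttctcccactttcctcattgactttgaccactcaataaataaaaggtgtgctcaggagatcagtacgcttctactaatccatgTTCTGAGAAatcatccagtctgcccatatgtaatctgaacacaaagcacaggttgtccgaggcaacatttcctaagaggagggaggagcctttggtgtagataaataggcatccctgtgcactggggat
Serpina3m: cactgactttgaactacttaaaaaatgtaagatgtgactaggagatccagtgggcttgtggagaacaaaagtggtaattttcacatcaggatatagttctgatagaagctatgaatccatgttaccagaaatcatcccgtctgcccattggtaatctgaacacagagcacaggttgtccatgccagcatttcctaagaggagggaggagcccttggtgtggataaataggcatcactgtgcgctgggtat
Serpina3n: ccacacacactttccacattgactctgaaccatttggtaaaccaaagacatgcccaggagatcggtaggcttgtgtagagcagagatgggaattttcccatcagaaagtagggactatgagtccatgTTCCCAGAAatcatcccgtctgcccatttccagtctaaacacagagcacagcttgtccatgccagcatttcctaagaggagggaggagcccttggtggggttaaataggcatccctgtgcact
Serpinb9b: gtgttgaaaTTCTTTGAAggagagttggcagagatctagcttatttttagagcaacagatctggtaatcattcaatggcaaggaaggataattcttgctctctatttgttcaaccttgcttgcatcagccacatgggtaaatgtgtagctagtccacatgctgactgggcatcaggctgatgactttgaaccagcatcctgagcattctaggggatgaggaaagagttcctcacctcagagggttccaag
Serpina3l and Serpina3n each held 1 match at about the same distance from the start, at bases −129 to −121 and −123 to −115. Serpina3m held none, and Serpinb9b held 1 at −241 to −233. RefSeq promoters were matched for 27 of the 33 Serpin genes, and 4 of these held the element, the fourth being Serpina11. Among all 27456 promoters of this length 7.57% held it. Compared base by base without gaps, Serpina3l and Serpina3m shared 60% of the 250 positions, Serpina3l and Serpina3n 24%, and Serpina3m and Serpina3n 25.6%. The Serpina3 genes are neighbouring copies, and the files do not show whether a probe set of one also takes signal from another.

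Several secreted inhibitors gave signal far above background on every array. Serpina1, antitrypsin, the inhibitor of neutrophil elastase, ranged from 3531 to 10927 over the 72 arrays with a median of 6018. Serpinc1, antithrombin, ranged from 1555 to 4550, and Serpinf1, a secreted serpin that does not inhibit proteases, from 979 to 3847. Serpina10, which acts on clotting factor X with protein Z, ranged from 543 to 2130. None of these 4 had an array at the floor of 3.117, the level to which lower values were raised. Wider ranges were seen in the hormone carriers and in Serpina3 genes. Serpina3c ranged from 0.741 to 1039, and Serpina3l from 15.4 to 1216. Serpina6, which carries corticosteroids in plasma, ranged from 0.172 to 245, and Serpina7, which carries thyroxine, from 0.16 to 135. The plasma inhibitor of thrombin Serpind1, heparin cofactor II, ranged from 5.67 to 1291.

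With time in culture the Serpins that fell in the controls were secreted ones, and those that rose were intracellular ones of clade B. The change was taken as 72 h minus 24 h, averaged over the control groups of NNK, methapyrilene and the 2-nitrofluorene set, which hold no number 3 arrays of the kind above. The NNK and 2-nitrofluorene controls share the D numbers 7, 8 and 9, so their arrays may not be independent. In a limma fit over all 18048 probe sets with Benjamini-Hochberg adjustment, 15 of 24 Serpin probe sets passed an adjusted p of 0.05, 6 higher and 9 lower. Over all probe sets 21.8% passed, 13.2% higher and 8.62% lower. In clade A 0 probe sets rose and 5 of 10 fell, with a median log2 difference of −0.77. In clade B 6 of 7 rose and 0 fell, with a median of 1.75. Of these 6, Serpinb6b and 1380346_at of Serpinb1a passed the filter through 72 h groups alone, 2 and 4 of them, so they had to be higher at 72 h and lend the count no support. Probe set 1377034_at of Serpinb1a reached the filter limit in 1 of 12 groups at 24 h and 9 of 12 at 72 h. In clade A, Serpina6 reached it in 12 of 12 groups at 24 h and 2 of 12 at 72 h. For both the filter favoured the direction seen, so they add little to the counts. Of the 7 probe sets of clades C to H, 0 rose and 4 fell.

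**Figure D1:**
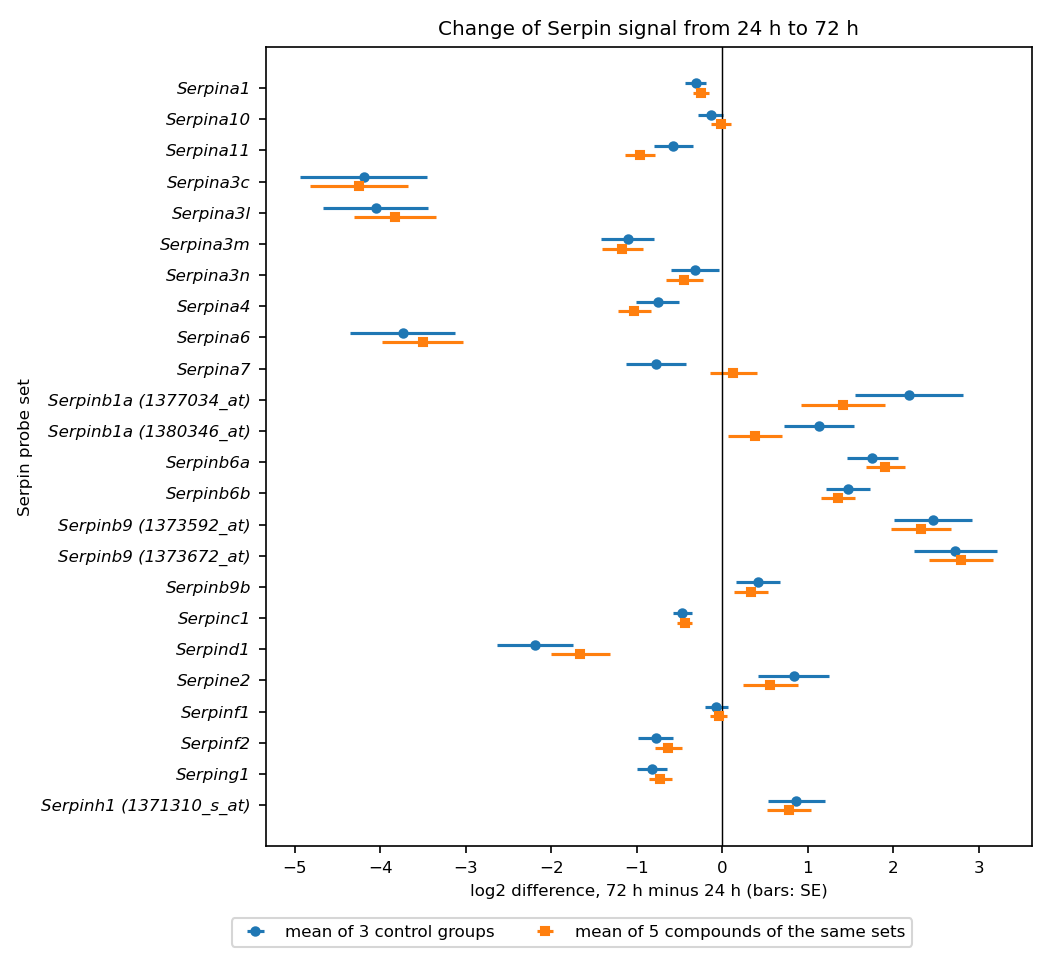
Log2 difference between 72 h and 24 h (x axis) for the 24 tested Serpin probe sets (y axis), as the mean of 3 control groups (circles) and of the 5 compounds of the same sets (squares), with SE bars. Serpina3c, Serpina3l and Serpina6 lie at −3.5 or below in both, and every clade B probe set lies above 0.

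Serpina3c signals were 203, 628 and 504 in the NNK controls at 24 h and 42.1, 35.0 and 36.4 at 72 h. In the methapyrilene controls they were 429, 523 and 646, then 15.7, 23.4 and 20.0, and in the 2-nitrofluorene set 291, 1039 and 441, then 30.2, 22.0 and 20.6. Every 24 h array was above every 72 h array, and the mean was 18.3-fold lower at 72 h (log2 −4.19 ± 0.74 SE, limma adjusted p = 4.50e-05). Serpina3l, its neighbour, fell as far. Its 24 h signals lay between 346 and 1216 and its 72 h signals between 30.3 and 89.1 over the 9 arrays of each time, with a log2 difference of −4.05 ± 0.61 (limma adjusted p = 4.88e-06). Serpina3m fell by 1.10 ± 0.31 on the log2 scale (limma adjusted p = 0.00725). Serpina3n, the remaining Serpina3 member, is an acute phase protein in rodents, and its difference was −0.32 ± 0.28 (limma adjusted p = 0.452).

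Serpina6 gave 23.4 to 83.9 at 24 h. At 72 h 6 of the 9 control arrays were at the floor and the highest was 5.08, so the groups did not overlap. The log2 difference of −3.73 ± 0.61 (limma adjusted p = 1.68e-05) understates the fall because of the floor. Serpina7, the other hormone carrier, differed by −0.77 ± 0.35 and did not pass (limma adjusted p = 0.108). Serpina4, kallistatin, an inhibitor of tissue kallikrein, fell by 0.76 ± 0.25 (limma adjusted p = 0.0237), a call that was lost when replicate 2 of any of the 3 control groups at 72 h was left out. Serpina1 (−0.31 ± 0.12), Serpina10 (−0.14 ± 0.15) and Serpina11 (−0.57 ± 0.23) did not pass.

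Serpind1 signals at 24 h lay between 521 and 1291 and at 72 h between 142 and 403, without overlap. The fall was 4.57-fold (log2 −2.19 ± 0.44, limma adjusted p = 0.000274). Serping1, the inhibitor of the first complement component, fell by 0.82 ± 0.18 on the log2 scale. Serpinf2, which inhibits plasmin, fell by 0.78 ± 0.21, and Serpinc1 by 0.47 ± 0.11. These are smaller steps of under 2-fold, each past the threshold (limma adjusted p = 0.000540, 0.00487 and 0.00201). Serpinf1 differed by −0.07 ± 0.13, Serpine2 by 0.83 ± 0.42 and Serpinh1 by 0.87 ± 0.33, and none of them passed.

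Serpinb9, which blocks granzyme B, gave 85.3 to 572 at 24 h on probe set 1373672_at and 1099 to 2111 at 72 h. The 9 arrays of one time did not overlap those of the other, and the rise was 6.61-fold (log2 2.72 ± 0.49, limma adjusted p = 5.75e-05). Its other probe set rose by 2.47 ± 0.46 (limma adjusted p = 8.47e-05). Serpinb6a, an inhibitor of cathepsin G, went from 25.6 to 65.5 at 24 h to between 80.8 and 208 at 72 h (log2 1.75 ± 0.30, limma adjusted p = 2.87e-05). Serpinb6b, also on chromosome 17, rose by 1.47 ± 0.26, from signals of at most 6.98 to between 9.99 and 28.2. Serpinb1a, which inhibits neutrophil elastase, rose on both probe sets, by 2.18 ± 0.63 and by 1.13 ± 0.41. The second call (1380346_at, limma adjusted p = 0.0393) was lost in 12 of 18 fits with 1 array left out. Serpinb9b was the clade B member that did not pass, at 0.42 ± 0.26 (limma adjusted p = 0.258).

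**Figure D2:**
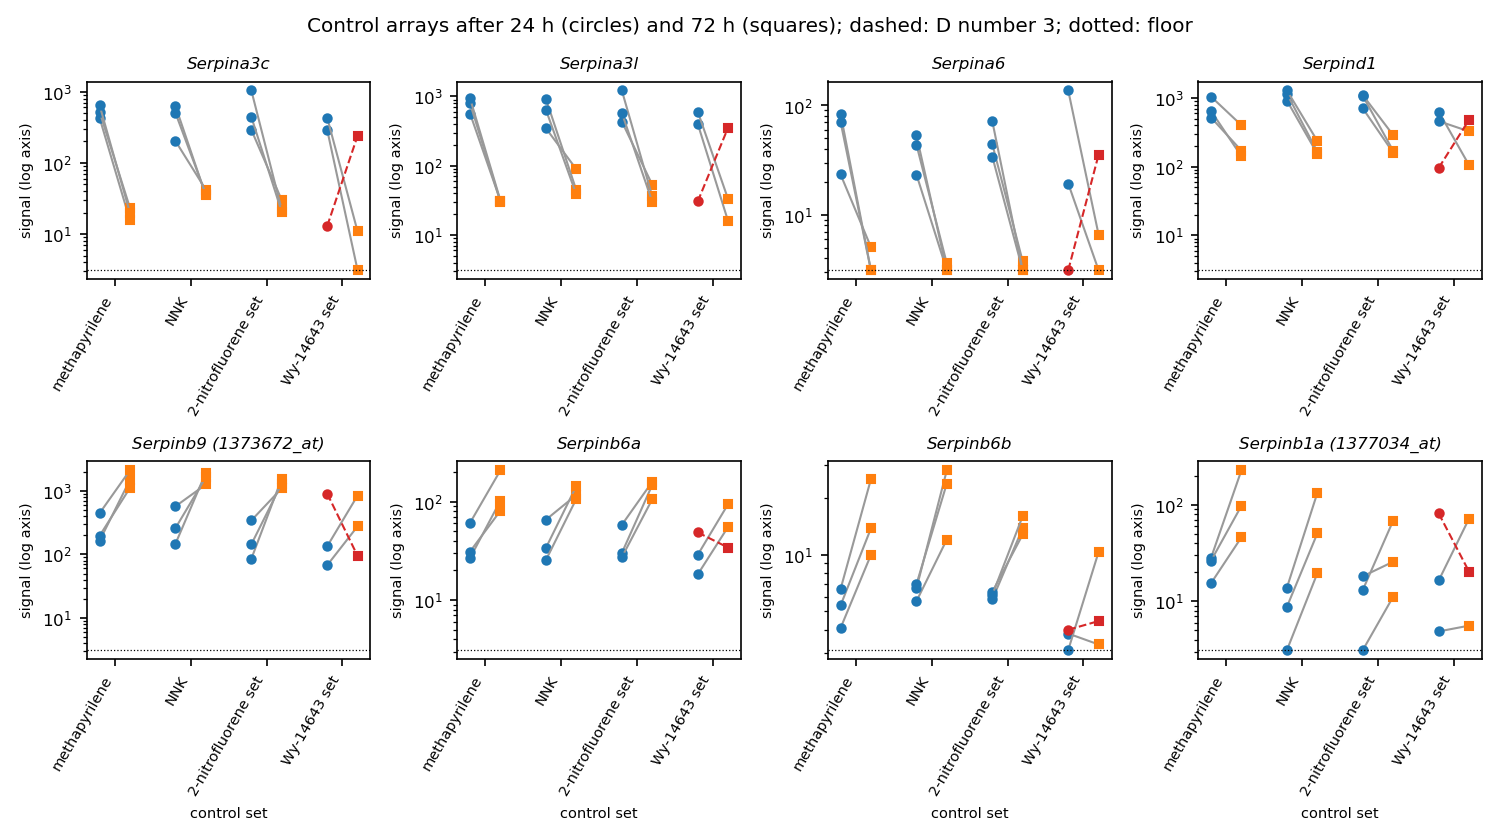
Signal per control array on a log axis (y) in 4 control sets (x) at 24 h (circles) and 72 h (squares), with lines joining arrays of equal number, dashed for D number 3 of the Wy-14643 set and a dotted line at the floor of 3.117. In the first 3 sets of each panel the lines run one way, and the dashed line runs the other way in 7 of the 8 panels, the exception being Serpinb6b.

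The 5 compounds that go with these 3 control sets are other arrays, and the change from 24 h to 72 h was computed in them too. There 17 of 24 Serpin probe sets passed, 6 higher and 11 lower, against 23.4% of all probe sets, and 14 of the 15 above were among them. Of the 6 rises 5 were of clade B and 1 was of clades C to H. Serpina3c changed by −4.25 ± 0.57, Serpina3l by −3.83 ± 0.47, Serpina6 by −3.50 ± 0.47, Serpinb9 by 2.79 ± 0.38 (1373672_at) and Serpinb6a by 1.91 ± 0.23. Counted over the 15 called probe sets and 15 treated pairs of equal number, the sign was that of the control mean in 216 of 225 results. These are not independent.

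In the fourth control set, that of Wy-14643, 0 of 24 Serpin probe sets passed with all arrays (limma, 0 at an unadjusted p under 0.05, and 0% of all probe sets). Serpina3c there gave 289, 430 and 13.0 at the label of 24 h and 0.741, 10.9 and 241 at that of 72 h, the last of each being number 3. Without the number 3 arrays the difference was −5.92 for Serpina3c (limma adjusted p = 3.79e-07) and −4.43 for Serpina3l (limma adjusted p = 8.45e-07), against 0.449% of all probe sets called. Over the set's control and treated arrays, the 15 called probe sets kept the direction of the other controls in 109 of 120 pairs of numbers 1 and 2, and ran opposite in 50 of 60 pairs of number 3. A direct test of the time change in this control against that in the other 3 passed for no probe set of the array.

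Lists of related genes moved as follows over culture time. Of 19 measured proteases that serpins inhibit, 3 rose and 6 fell, with a median of −0.28. The rises were St14, matriptase of epithelial cells (2.30 ± 0.37), Plat, the activator of plasminogen (1.83 ± 0.34), and Prss8 (0.98 ± 0.32). Of 13 cofactors and receptors 1 rose and 2 fell, and of 21 protease inhibitors of other families 3 rose and 4 fell. Spint1, the inhibitor of matriptase, rose by 2.83 ± 0.41. Of 16 genes of collagen synthesis, which Serpinh1 serves, 4 rose and 2 fell, and of 9 heat shock genes 0 rose and 3 fell. Markers of other cells moved over the same time. The summed endothelial signal went from 266 to 405 at 24 h to between 72.7 and 202 at 72 h, with 5 of 6 genes falling. Bile duct markers went from 256 to 429 to between 415 and 1005, with 3 of 3 rising. Hepatocyte markers summed to 29102 to 46350 and then 22531 to 36862, with 6 of 12 falling. Macrophage markers summed to 1235 to 2314 and then 954 to 2410, with 3 of 14 falling, and those of stellate cells and fibroblasts to 1486 to 2624 and then 2106 to 5551, with 1 rising and 2 falling of 10. Their part in the Serpin changes was not tested.

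Against the control of the same time, 9 of 384 Serpin results passed over 16 comparisons, 2 at 24 h and 7 at 72 h, beside 4613 of 288768 over all probe sets. All 9 belonged to aflatoxin B1 and to Wy-14643 at 72 h. In the remaining 13 comparisons limma called 0 of 312 Serpin results, with 19 at an unadjusted p under 0.05, and 0.77% of all results passed. At 24 h the share of all probe sets called in these was 0.92% for NNK, 1.13% for 2-nitrofluorene, 0.46% for nifedipine, 0.0887% for piperonyl butoxide, 0.0443% for Wy-14643, 0.0166% for clonidine and 0% for methapyrilene. At 72 h it was 3.32% for NNK, 3.18% for nifedipine, 0.809% for 2-nitrofluorene, 0.0332% for clonidine, and 0% for piperonyl butoxide and methapyrilene. The difference of effect between 72 h and 24 h passed for 0 of 192 Serpin results, with 10 at an unadjusted p under 0.05, and for 0.0187% over all probe sets.

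**Figure D3:**
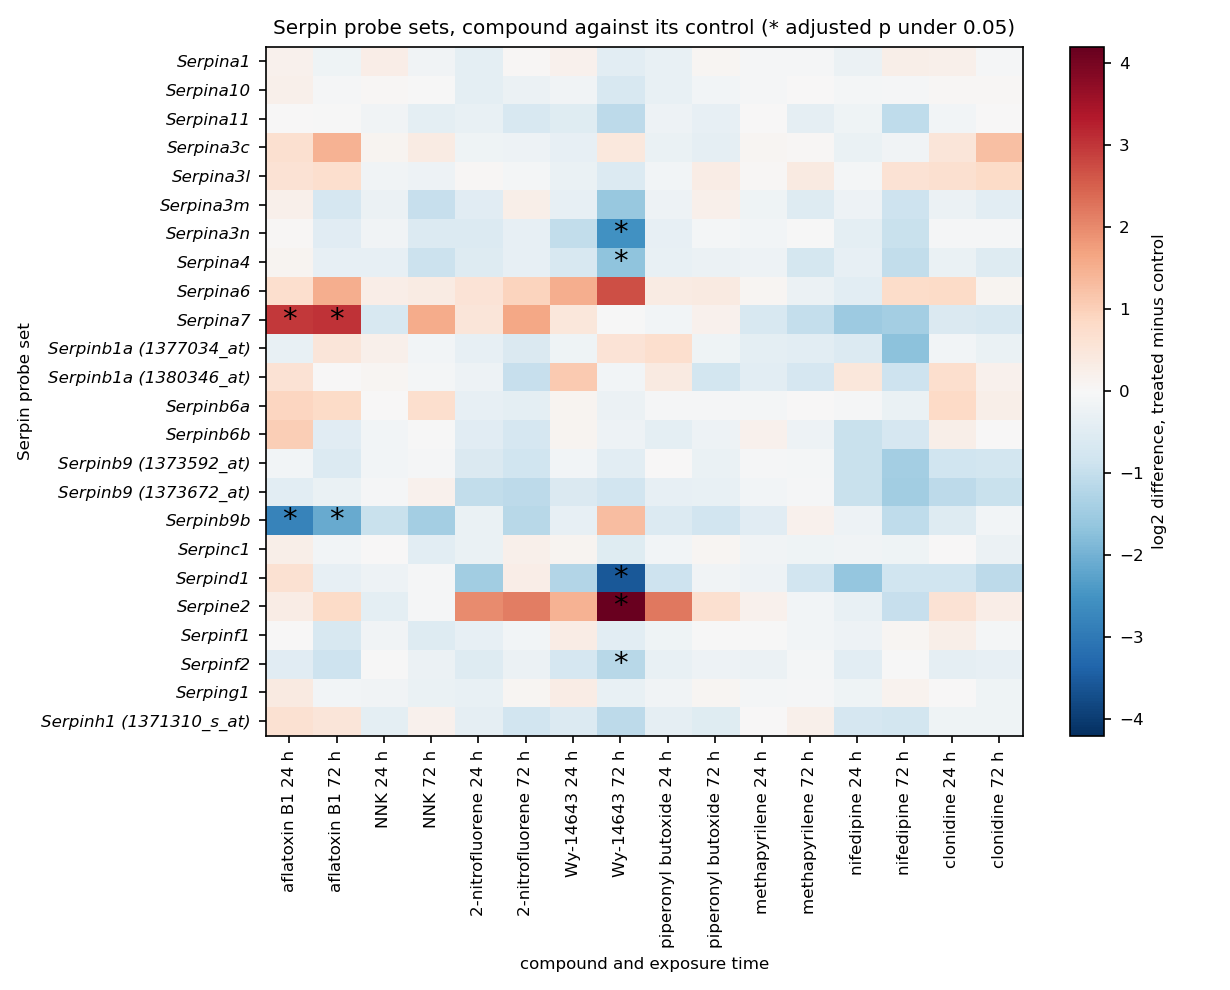
Log2 difference between treated and control (colour) for the 24 Serpin probe sets (rows) in 16 comparisons of compound and time (columns), with a star where the limma adjusted p is under 0.05. The 9 stars lie in the columns of aflatoxin B1 and of Wy-14643 at 72 h, and the Serpine2 row is also red for 2-nitrofluorene at both times and piperonyl butoxide at 24 h.

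Aflatoxin B1 moved 2 members at both times, one up and one down, against 3.33% of all probe sets called at 24 h (1.8% higher, 1.53% lower) and 4.91% at 72 h (2.78% higher, 2.13% lower). Wholly above the controls lay 2 Serpin probe sets at 24 h and 1 at 72 h, beside 5.94% and 6.61% of all, and wholly below them 1 and 2, beside 6.59% and 5.73%. Serpina7, the thyroxine carrier, gave 19.7, 5.96 and 3.19 in the 24 h controls and 105, 29.4 and 56.8 with aflatoxin. At 72 h it gave 7.31, 7.31 and 8.38 in the controls and 57.3, 135 and 32.5 with aflatoxin. All treated arrays were above all controls of their time, by 7.76-fold at 24 h (log2 2.96 ± 0.61, limma adjusted p = 0.00121) and 8.26-fold at 72 h (3.05 ± 0.61, limma adjusted p = 0.000549). Neither of these control groups reached the filter limit of 19.74. Both aflatoxin groups did, as did NNK and 2-nitrofluorene at 72 h, groups of other control sets. The highest treated array of each time was one with a high actin ratio. Without all arrays of high ratio 1 aflatoxin array was left at each time, assumed to vary like the other groups, and the differences were 1.44 (limma adjusted p = 0.635) and 2.97 (limma adjusted p = 0.0634). Without the number 3 arrays the value at 24 h was 2.36 (limma adjusted p = 0.0581) and at 72 h 3.59 (limma adjusted p = 0.000768). With the spread from this control set alone neither Serpina7 call passed (limma adjusted p = 0.0855 and 0.0503).

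Serpinb9b, a clade B serpin next to Serpinb9, went the other way. Its signals were 23.9, 32.2 and 22.9 in the 24 h controls and 5.36, 1.03 and 1.98 with aflatoxin. At 72 h they were 20.2, 14.2 and 17.8 against 3.50, 5.79 and 1.34. No treated array reached its controls, and 2 of 3 at 24 h and 1 of 3 at 72 h were at the floor. The differences were −2.80 ± 0.45 (limma adjusted p = 2.61e-05) and −2.11 ± 0.45 (limma adjusted p = 0.00126). They were −2.76 (limma adjusted p = 0.00177) and −1.91 (limma adjusted p = 0.0181) without the number 3 arrays. With the 1 aflatoxin array of lower actin ratio at each time they were −3.15 (limma adjusted p = 0.00465) and −2.28 (limma adjusted p = 0.0699). Serpinb9 itself differed by −0.43 at 24 h and −0.26 at 72 h on 1373672_at and did not pass.

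For aflatoxin 1 member passed at 24 h and 4 at 72 h without the number 3 arrays, against 4% and 12.8% of all probe sets. The additional falls at 72 h were 2 secreted serpins. Serpinf1 gave 3247, 3444 and 2088 in the controls and 2177, 979 and 2683 with aflatoxin, and differed by −0.68 with all arrays (limma adjusted p = 0.0856) and by −1.20 without number 3 (limma adjusted p = 9.59e-05). Serpinf2 gave 806, 833 and 830 against 584, 204 and 754, and differed by −0.88 (limma adjusted p = 0.180) and by −1.25 without number 3 (limma adjusted p = 0.000459). The Serpinf1 groups overlapped, and those of Serpinf2 did not. For both, the lowest aflatoxin array, at 979 and 204, had a high actin ratio (2.01). With the 1 aflatoxin array of lower actin ratio the differences were −0.62 for Serpinf1 and −0.49 for Serpinf2. With the actin ratio as covariate they were −0.51 (limma adjusted p = 0.154) and −0.58 (limma adjusted p = 0.311).

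**Figure D4:**
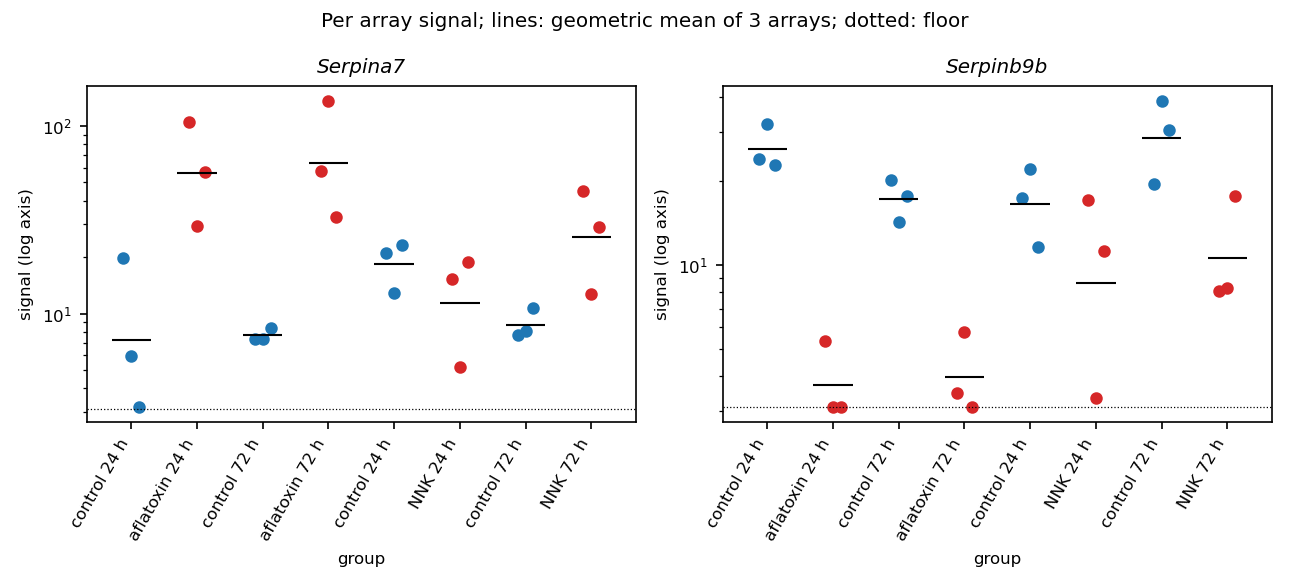
Signal per array on a log axis (y) of Serpina7 and Serpinb9b in the control, aflatoxin B1 and NNK groups (x), with lines at the geometric mean of 3 arrays and a dotted line at the floor of 3.117. For aflatoxin B1 the treated points lie wholly above the controls in Serpina7 and wholly below them in Serpinb9b.

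NNK at 72 h, with controls of its own, gave values in the same directions that did not pass (3.32% of all probe sets did). Serpinb9b gave 19.5, 38.7 and 30.5 in the controls and 8.12, 8.32 and 17.8 with NNK. Its treated arrays lay wholly below the controls, beside 15.1% of all probe sets. The difference was −1.42 ± 0.45 (limma adjusted p = 0.0642), and 0.0262 with the D number as a replicate block. Without the number 3 arrays, none of them in these groups, it passed at the same difference (limma adjusted p = 0.0471), as did Serpinf1 at −0.54 (limma adjusted p = 0.0442), against 7.37% of all probe sets. Serpina7 gave 7.67, 8.03 and 10.7 against 44.8, 12.7 and 29.0, a difference of 1.55 ± 0.61 (limma adjusted p = 0.163). At 24 h NNK differed by −0.93 for Serpinb9b and −0.69 for Serpina7. With 2-nitrofluorene at 72 h Serpina7 gave 34.2, 22.3 and 38.2 against 9.17, 7.09 and 15.3, a difference of 1.62 ± 0.61 that did not pass (limma adjusted p = 0.348).

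Beside the aflatoxin results, summed macrophage markers were 812 to 1843 in the 24 h controls and 1568 to 3243 with aflatoxin, and 833 to 1637 against 1811 to 2643 at 72 h. Of these 14 genes 12 and 13 were higher, but 0 passed at either time, beside 3.33% and 4.91% of all probe sets. The median difference over all probe sets was −0.04 at 24 h and 0.01 at 72 h. Of the proteases 1 of 19 rose at 24 h, and 2 fell at 72 h, Hpn (−0.91 ± 0.26) and Hgfac (−0.88 ± 0.24). Thbd, thrombomodulin, rose by 2.57 ± 0.76 at 72 h, and Slpi, a small secreted inhibitor of elastase, by 2.49 ± 0.47. The part of the macrophage markers and of the actin ratio in the Serpin results was not tested.

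Wy-14643 at 72 h moved 5 of the 24 Serpin probe sets, 1 higher and 4 lower, against 7.31% of all probe sets, 2.82% higher and 4.49% lower. Serpine2, protease nexin-1, which blocks thrombin and plasminogen activators at the cell surface, rose. Its signals were 18.6, 8.02 and 13.9 in the controls and 353, 589 and 55.1 with Wy-14643. No treated array overlapped the controls, and the mean was 17.7-fold higher (log2 4.14 ± 0.72, limma adjusted p = 0.000105). This call held with each array left out in turn, up to a limma adjusted p of 0.00758.

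The 4 that fell are secreted plasma serpins. Serpind1 gave 105, 327 and 484 in the controls and 31.7, 5.67 and 56.0 with Wy-14643, a fall of 3.57 ± 0.77 on the log2 scale (limma adjusted p = 0.00154). Serpina3n gave 4466, 4608 and 4524 against 959, 153 and 3288, a fall of 2.53 ± 0.48 (limma adjusted p = 0.000326). The controls of Serpina3n lay close together, while its treated arrays ran from 153 to 3288. Serpina4 gave 674, 1494 and 937 against 250, 195 and 590, a fall of 1.68 ± 0.43 (limma adjusted p = 0.00927). Serpinf2 gave 806, 833 and 830 against 541, 289 and 321, a fall of 1.16 ± 0.36 (limma adjusted p = 0.0366). In each of the 4 every treated array was below every control. In all, 2 Serpin probe sets lay wholly above the controls and 8 wholly below, beside 5.05% and 8.76% of all probe sets. Without Wy-14643 replicate 2, the lowest array for each of these 4, none of them passed, and Serpina3n differed by −1.35 (limma adjusted p = 0.0576). Of all 72 arrays this replicate had the lowest median signal, 15.8, and the largest share of values at the floor, 23.9%. It also gave the highest Serpine2 signal of its group. Serpina4 was also lost without control replicate 2, and Serpinf2 without any 1 of 5 of the 6 arrays.

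**Figure D5:**
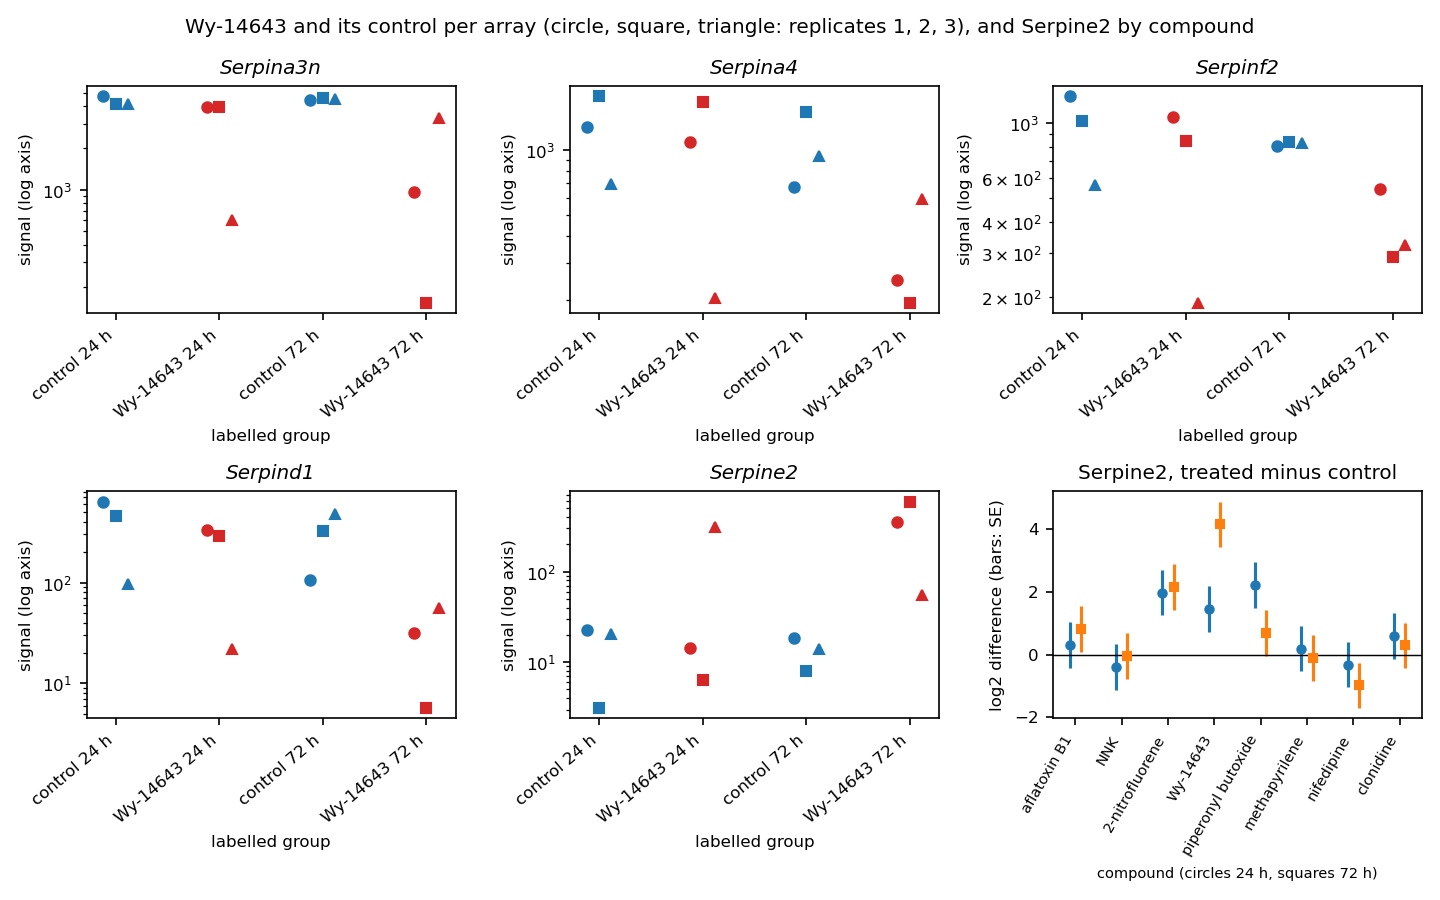
Signal per array on a log axis (y) of 5 Serpins in the labelled groups (x) of Wy-14643 and its control, with a symbol per replicate, and in the last panel the log2 difference of Serpine2 for 8 compounds at 24 h (circles) and 72 h (squares) with SE bars. The triangles of Wy-14643, replicate 3, stand apart from the other replicates at 24 h in all 5 Serpins.

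At the label of 24 h, limma called 0 Serpins for Wy-14643 (1 at an unadjusted p under 0.05, and 0.0443% of all probe sets called). The number 3 array of that group differed from its 2 companions. Serpine2 gave 14.4, 6.36 and 314 there, against 22.4, 0.991 and 20.3 in the controls, and Serpina3n gave 3932, 3939 and 610. Without the number 3 arrays of both times 8 Serpins passed at 72 h, against 9.15% of all probe sets. Serpine2 then stood at 5.22 (limma adjusted p = 8.09e-09) and Serpina3n at −3.56 (limma adjusted p = 7.45e-09). Serpina6 joined the calls at 3.92 (limma adjusted p = 0.00320), with 28.7, 165 and 41.6 on the 3 treated arrays at 72 h against 0.314, 6.59 and 35.5. With all arrays its difference was 2.69 (limma adjusted p = 0.115). The difference of effect between 72 h and 24 h then passed for Serpine2 (5.02), Serpina3n (−3.40) and Serpina4 (−2.03), against 0.665% of all probe sets. Other called falls at 72 h were then −3.79 for Serpind1 (limma adjusted p = 3.03e-05) and −2.18 for Serpina4 (limma adjusted p = 3.76e-05). Called too were Serpinf2 at −1.05 (limma adjusted p = 0.00389), Serpina3m at −1.95 (limma adjusted p = 0.0129) and Serpina11 at −1.38 (limma adjusted p = 0.0455).

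The numbers pair treated and control arrays for Wy-14643, and with the D number as a replicate block 10 Serpins passed at 72 h, 2 higher and 8 lower, against 13.2% of all probe sets. Beyond the first fit with all arrays, the added falls were Serpina10 (−0.66), Serpina3m (−1.59), Serpina11 (−1.09) and Serpinc1 (−0.51). The added rise was Serpinb9b (1.30). With the spread taken from the arrays of this control set alone, none of the 5 calls of the first fit passed, at limma adjusted p-values from 0.0827 to 0.441.

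Of 19 target proteases 0 rose and 8 fell after 72 h of Wy-14643, with a median of −0.59 beside −0.03 over all probe sets. Klkb1, plasma prekallikrein, fell by 2.49 ± 0.47, Plg, plasminogen, by 2.45 ± 0.55, and Prss8 by 1.95 ± 0.56. Of 21 inhibitors of other families 0 rose and 6 fell, with a median of −0.71, led by the fetuins Ahsg (−1.70 ± 0.25) and Fetub (−1.69 ± 0.26) and by Itih1 (−1.30 ± 0.25). Vtn, vitronectin, fell by 2.88 ± 0.60 among 2 falls of 13 cofactors. Of collagen synthesis genes 3 rose and 1 fell of 16, and of heat shock genes 3 rose of 9, while Serpinh1 differed by −1.10 and did not pass. Hepatocyte markers summed to 29151 to 34819 in the controls and 24001 to 24704 with Wy-14643, with 1 of 12 rising and 4 falling. Macrophage markers summed to 833 to 1637 against 485 to 929, with 4 of 14 falling, and stellate cell and fibroblast markers to 2065 to 4559 against 480 to 2215, with 1 of 10 falling. Endothelial markers summed to 75.2 to 371 against 57.4 to 265 and bile duct markers to 365 to 646 against 191 to 555, with 0 passing in either list. Their part in these results was not tested.

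Serpine2 was also high in other groups without passing. With 2-nitrofluorene it gave 46.5, 60.2 and 67.3 at 24 h, against 17.2, 12.2 and 14.8, and 134, 101 and 211 at 72 h, against 23.7, 30.6 and 45.2. With piperonyl butoxide at 24 h it gave 56.6, 97.4 and 56.5 against the same 24 h controls. No treated array overlapped the controls, beside 10.7%, 8.75% and 6.26% of all probe sets wholly above them. The differences were 1.98 ± 0.72, 2.15 ± 0.72 and 2.22 ± 0.72 (limma adjusted p = 0.208, 0.232 and 0.603). Without the number 3 arrays of the Wy-14643 set, none of which belongs to these groups, all 3 passed (limma adjusted p = 0.00729, 0.00428 and 0.00898). Calls rose in general under this setting. Pooled over the 8 compounds, 1.33% of all results passed at 24 h and 4.83% at 72 h, against 0.749% and 2.45% with all arrays. The shared spread then holds fewer arrays, and these values share controls. The compounds differ in dose, so their sizes are given side by side only.

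Nifedipine at 72 h left 19 of 24 Serpin probe sets below the control, with a median difference of −0.81 beside −0.07 over all probe sets. None passed, with 4 at an unadjusted p under 0.05 and 3.18% of all probe sets called. The arrays of 9 Serpin probe sets lay wholly below the controls and 0 wholly above, beside 20.2% and 13.6% of all probe sets. Serpina11, a secreted clade A member, gave 636, 447 and 443 in the controls and 375, 205 and 182 with nifedipine. The difference was −1.06 ± 0.39 (limma adjusted p = 0.124), and 0.00359 with the replicate block. Without the number 3 arrays of the Wy-14643 set Serpina4 passed at −1.02 (limma adjusted p = 0.0240), against 7.42% of all probe sets. Serpinb9 gave 1099, 1559 and 1304 against 312, 715 and 493 on 1373672_at, a difference of −1.45 ± 0.85 (limma adjusted p = 0.397). Macrophage markers fell in 3 of 14 genes there, with a median of −1.49 and sums of 972 to 2127 in the controls and 537 to 1191 with nifedipine. Bile duct markers summed to 819 to 1005 against 576 to 733, with 0 of 3 passing. The part of these markers was not tested.

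Clonidine and methapyrilene called 0 Serpins at either time with limma, and 0 reached an unadjusted p under 0.05 in those 4 comparisons, where 0% to 0.0332% of all probe sets passed. Clonidine differences ranged from −1.10 to 0.82 at 24 h and from −1.09 to 1.25 at 72 h. Clonidine also called 0 Serpins with limma without the number 3 arrays, against 0.0166% and 0.0499% of all probe sets, at differences from −1.09 to 0.74 and from −1.10 to 1.93. Those of methapyrilene ranged from −0.66 to 0.19 and from −1.01 to 0.39.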

How the data were processed

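Per the submitters' processing notes the authors made the deposited values with MAS5 (version not given in the sources used here), which gives 1 intensity per probe set on a linear scale; the signals above are these. They had been scaled so that the trimmed mean of an array (2% off each end) is close to 100. No value column was left unused (0). Values were raised to the 20th percentile (3.117), which understates folds of dim genes, and put on log2. The 57 control probe sets were left out. limma 3.58.1 in R 4.3.3 fitted 24 group means with 48 residual degrees of freedom, eBayes with trend and Benjamini-Hochberg adjustment per comparison over 18048 probe sets. Scripts were tested on simulated data. The 3 arrays per group limit precision; the protocol speaks of independent experiments. The D numbers paired the arrays in 14 of 16 compound comparisons (not aflatoxin B1), with correlations over 0.1, and in 2 of 4 control time comparisons. Members, lists and tests were chosen with earlier results of these data known. All Serpins are accounted for; those called are given in full, with the 6 largest rises and falls over time and up to 3 called genes per list. The test of the time change between control sets, the counts over pairs of arrays and the named uncalled results were added after the values were seen. Gene symbols came from the platform annotation, chromosomes and promoters from RefSeq GRCr8.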

Additional observations from a re-analysis of the deposited data

How the results depend on the processing

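Over all comparisons at once, 15 Serpin probe sets passed for culture time, 2 at 24 h and 7 at 72 h against control, and 0 for the difference between the times. Over all probe sets 0.749% passed at 24 h, 2.45% at 72 h and 0.0187% for the difference. With the D number as a replicate block 15 passed at 72 h (4.8% of all), 7 of them as before, and 2 at 24 h (1.78%). For culture time the block gave 19 of 24 against 29.6% of all, adding Serpina1, Serpina7, Serpina11 and Serpinh1; the control sets of NNK and 2-nitrofluorene share the D numbers 7, 8 and 9. The block changed no other compound call than those given for Wy-14643, NNK, nifedipine and Serpinf1 after aflatoxin B1 (−0.68). Without the D number 3 arrays 16 passed at 72 h (4.83% of all) and 3 for the difference between times (0.141%). Without the arrays of high actin ratio 4 passed at 24 h (1.45%), 15 at 72 h (4.68%) and 3 for the difference (0.264%), with 1 aflatoxin array left at each time. With the spread from the same control set 7 passed at 24 h (1.53%), and 9 at 72 h (3.32%). At each time only Serpinb9b after aflatoxin B1 was kept from the calls made before. The others were new, so which Serpins are called depends on the spread used. With 1 array left out, the counts ran from 13 to 17 for culture time, stayed at 2 at 24 h, and ran from 3 to 9 at 72 h and from 0 to 1 for the difference. The other floor, pseudocount, filter, quantile normalization, trend and actin covariate settings kept these 4 counts within 1.5 times. Of single called probe sets, 253 values under an alternative kept direction and call, 16 kept direction alone and 0 reversed. Signals near the floor, as in Serpina6, Serpina7 and Serpinb9b, limit the sizes given, and 14 Serpin probe sets were too dim to test.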
